A study of Mus musculus with 20 samples.

Results

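The 9 core circadian clock genes Arntl, Clock, Npas2, Per1, Per2, Per3, Cry1, Cry2 and Ciart were followed in brown adipose tissue (BAT) of mice, a fat that oxidises fuel to make warmth. They were chosen by gene symbol from the 55471 gene IDs of the count tables. All 9 were found as 1 ID each and all 9 passed the filter on low counts. The tissue was profiled by stranded mRNA sequencing in 20 libraries, 5 for each of 4 groups. KO_cold was tissue with an adipose-specific knockout (KO) of CEBPB after 4 h of cold stress, and KO_RT was the same knockout at room temperature (RT). WT_cold was wild-type (WT) tissue after 4 h of cold stress, and WT_RT was wild-type tissue at RT. CEBPB is the transcription factor C/EBP beta, encoded by Cebpb. The Cre driver behind the knockout, the age and sex of the mice, the hour at which tissue was taken and the light cycle are not given in the sources used here. The labels do not state that libraries of a group came from separate animals, and a p therefore reflects only how far these libraries scatter, for technical or other reasons.

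The clock is a feedback loop of transcription that most mammalian cells run with a period of about a day. BMAL1 (the product of Arntl) pairs with CLOCK or its paralog NPAS2, binds E-boxes in DNA and switches on the Period and Cryptochrome genes, whose proteins return to the nucleus and repress BMAL1 and its partner. CIART, also called CHRONO, is a further repressor of BMAL1. In mice, Per1 and Per2 can also be switched on directly by cAMP through CREB and by glucocorticoids, and ROR and REV-ERB receptors raise and lower Arntl. Brown fat has such a clock, and its heat production varies over the day.

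Counts assigned to genes were 27.07 to 55.18 M per library. Cebpb was at 1.61 to 2.27 CPM (read counts of a gene relative to the scaled total of its library) in KO_cold, 0.208 to 0.856 in KO_RT, 108 to 167 in WT_cold and 75.5 to 130.4 in WT_RT, so every library matched its genotype label. The brown fat marker Ucp1 lay at 4852 CPM or above in every library, and no marker of the 8-gene brown adipocyte list was at 0. The summed level of 18 skeletal muscle markers was 44.6 to 50.0 CPM in KO_cold, 84.4 to 706 in KO_RT, 50.1 to 91.3 in WT_cold and 58.4 to 1597 in WT_RT, with Myh4, Myh7 and Ckm at 0 in KO_cold and Myh7 at 0 in WT_cold. The summed level of the lymphocyte markers was 0.929 to 1.63 CPM in KO_cold, 2.03 to 3.37 in KO_RT, 0.891 to 1.96 in WT_cold and 2.03 to 3.20 in WT_RT. That of 5 endothelial markers was 809 to 933 CPM in KO_cold, 533 to 718 in KO_RT, 717 to 891 in WT_cold and 644 to 818 in WT_RT, so the temperatures were apart in KO and overlapped in WT. By the test used below, 3 of these 5 rose and 2 fell with cold in KO, and 2 rose and 2 fell in WT. Of all genes tested, 27.5% rose and 31.7% fell in KO, and 26.2% rose and 30.2% fell in WT. The part of lymphocytes and endothelial cells in the results was not tested. On the first principal component, WT_cold replicate 5 and WT_RT replicate 4 sat closer to the centre than the other libraries of their groups, and they are called the intermediate WT libraries here. These are bulk samples, in which fewer cells of a type and less RNA per cell cannot be told apart.

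Promoter letters were taken from the RefSeq table of windows around gene starts on build GRCm38.p6, which held 8 of the 9 genes in 12 windows. It held no window for Per2, so Per2 was not searched for any motif. The following 250 bases upstream of a start site are shown for 4 genes whose windows hold elements known from clock and cAMP control. Capitals mark E-boxes (CACGTG) in Ciart, Per1 and Cry1, the cAMP response element core TGACG in Per1, and D-boxes (TTATGTAA) in Per3. All are written 5′ to 3′ on the strand of the gene. The windows are chr3:95882229-95882478 on the minus strand (Ciart), chr11:69098699-69098948 and chr11:69099902-69100151 on the plus strand (Per1, both starts), chr4:151044666-151044915 on the minus strand (Per3) and chr10:85185055-85185304 on the minus strand (Cry1).
Ciart: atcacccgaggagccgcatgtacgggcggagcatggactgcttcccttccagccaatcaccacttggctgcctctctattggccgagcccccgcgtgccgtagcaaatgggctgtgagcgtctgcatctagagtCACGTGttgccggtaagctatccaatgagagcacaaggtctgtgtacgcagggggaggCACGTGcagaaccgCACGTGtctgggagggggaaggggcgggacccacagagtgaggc
Per1, start 1: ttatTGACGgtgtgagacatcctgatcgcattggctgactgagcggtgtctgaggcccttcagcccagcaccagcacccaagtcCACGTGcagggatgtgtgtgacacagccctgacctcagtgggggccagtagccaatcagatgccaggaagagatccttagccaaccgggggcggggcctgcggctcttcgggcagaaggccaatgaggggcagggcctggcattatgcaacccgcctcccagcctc
Per1, start 2: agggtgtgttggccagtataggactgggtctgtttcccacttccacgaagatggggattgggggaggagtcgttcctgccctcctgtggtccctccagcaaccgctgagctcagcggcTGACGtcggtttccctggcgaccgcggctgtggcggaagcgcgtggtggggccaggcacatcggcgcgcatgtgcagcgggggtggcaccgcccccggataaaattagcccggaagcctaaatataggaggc
Per3: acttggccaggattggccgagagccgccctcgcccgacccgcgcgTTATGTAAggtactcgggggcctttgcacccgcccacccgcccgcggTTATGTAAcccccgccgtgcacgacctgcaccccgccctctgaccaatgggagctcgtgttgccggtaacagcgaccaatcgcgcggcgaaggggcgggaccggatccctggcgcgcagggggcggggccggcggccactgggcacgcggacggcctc
Cry1: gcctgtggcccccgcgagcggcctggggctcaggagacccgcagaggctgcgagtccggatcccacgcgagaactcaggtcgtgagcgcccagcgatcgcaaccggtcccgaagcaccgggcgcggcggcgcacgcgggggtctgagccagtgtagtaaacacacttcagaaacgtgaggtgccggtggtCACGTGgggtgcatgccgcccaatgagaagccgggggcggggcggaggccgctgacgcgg

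The E-box CACGTG, which reads the same on both strands, occurred 3 times in the Ciart window, at -116, -58 and -44 from the start, and once each in Per1 (-166) and Cry1 (-60). Of all 32851 windows of this length in the table, 6.02% held 1 or more E-boxes and 0.429% held 2 or more. Of the 8 genes searched, Per3 was the 1 with D-boxes, the sites of PAR bZIP factors such as DBP, at -205 and -158. A D-box was in 0.819% of all windows, and 2 or more were in 6 of them. The core TGACG, searched on both strands and contained in the full cAMP response element TGACGTCA, was at -246 and -132 in the Per1 windows, at -8 in Cry1 (left in lower case above) and, on the other strand, at -209 in Cry2. It occurred in 17.8% of all windows, while the full TGACGTCA occurred in 1.55% of windows and in none of the 12 windows of the members searched. The E-box variant CACGTT occurred on the minus strand in Cry1 and Cry2, and in 3.85% of all windows.

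The Arntl windows held no E-box but 2 ROR elements around the second start, searched on both strands as GTAGGTNA. The capitals below mark them, and the stretches lie at chr7:113207496-113207519 and chr7:113207532-113207555 on the plus strand.
Arntl, element at -7: gtcggaaaGTAGGTTAgtggtgcg
Arntl, element at 29: ggcagaaaGTAGGTCAgggacgga
Of all windows of 300 bases, 2.14% held such an element. Clock and Npas2 held none of the motifs searched. A match of letters is a description and shows no binding.

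After 4 h of cold, 7 of the 9 genes rose, Per3 fell and Cry2 did not pass the test, in both genotypes. Because the hour of collection is not given for any group, a difference in hour between cold and RT libraries cannot be told apart from cold. Arntl and Npas2 of the activating arm rose together with Per1, Per2, Cry1 and Ciart of the repressing arm, and Clock rose least. Among all 15233 genes tested, 59.2% passed the same test for cold in KO (27.5% higher and 31.7% lower) and 56.4% for cold in WT (26.2% higher and 30.2% lower), so a changed gene as such was common. The median size of the 9 changes, in either direction, was 1.71 on the log2 scale in KO and 1.66 in WT, against 0.40 and 0.37 over all genes tested. The 5 cold and 5 RT libraries did not overlap for 7 of the 9 genes in each genotype, against 44.9% of all genes in KO and 38.2% in WT. All tests were edgeR's quasi-likelihood test with Benjamini-Hochberg adjustment over all genes, and a gene passed at an adjusted p under 0.05. The KO and WT comparisons of cold use separate libraries, whereas the comparisons of genotype reuse them.

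**Figure D1:**
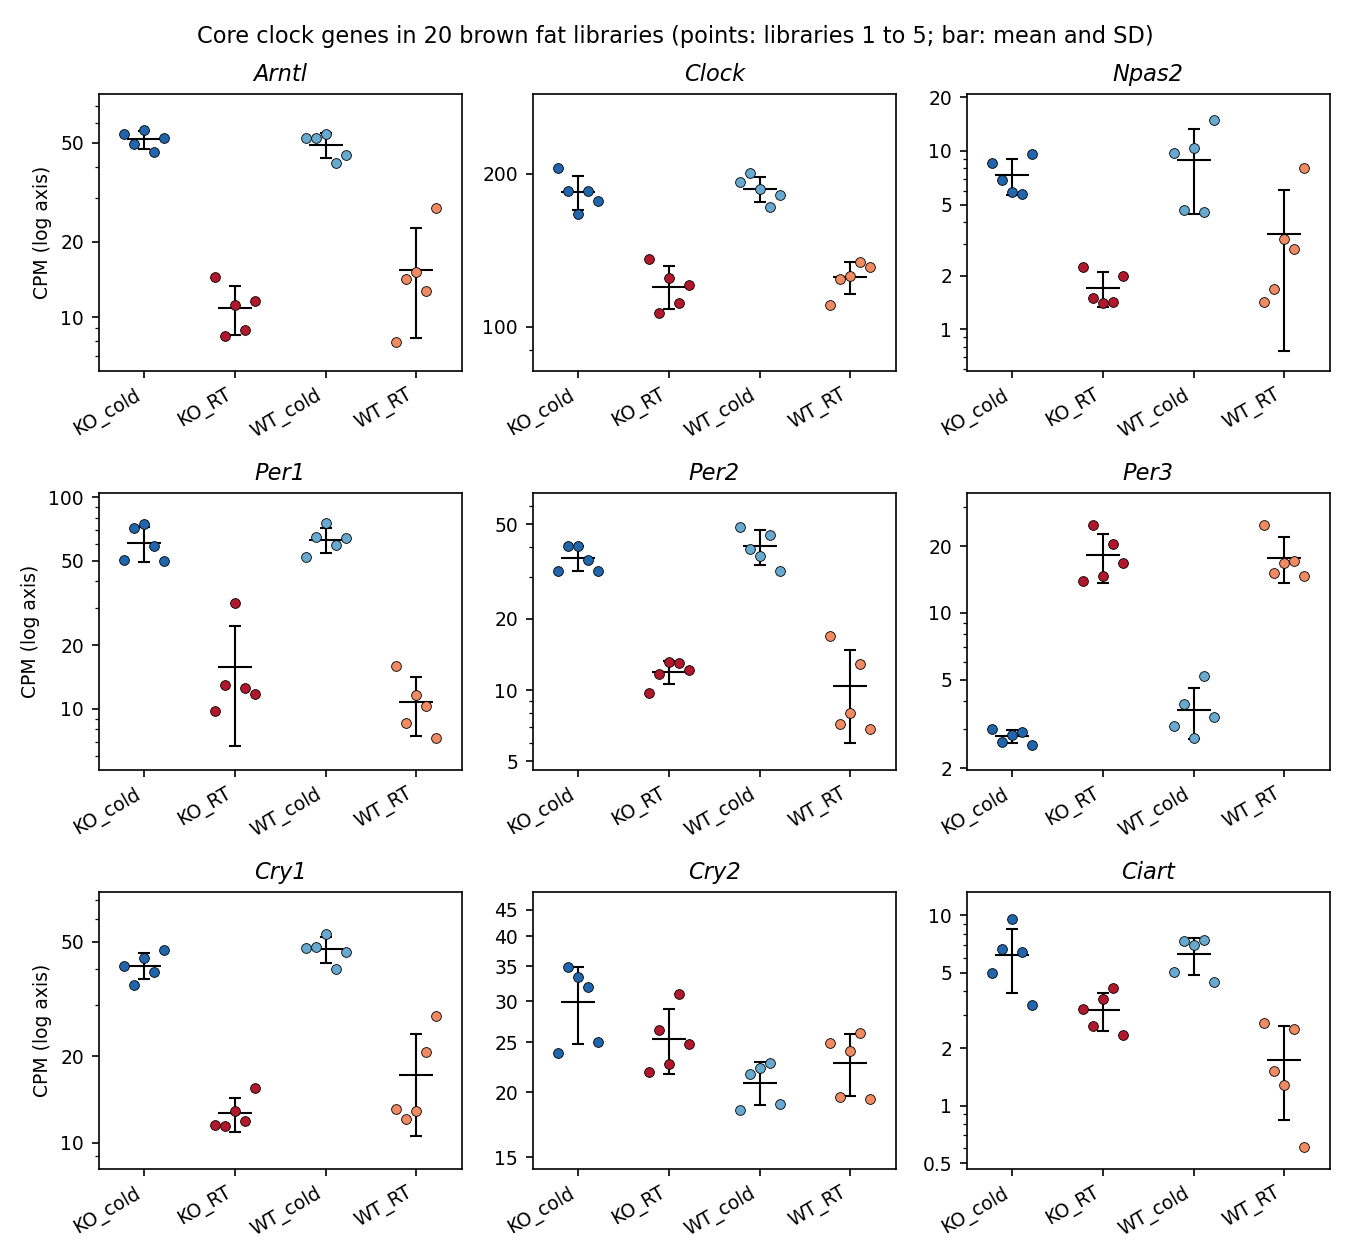
Level of each of the 9 core clock genes in CPM (log axis) in the 20 libraries, with 1 point per library and bars for the mean and SD of the 5 libraries of a group. Arntl, Per1, Per2 and Cry1 sit higher in both cold groups than in both RT groups, Per3 sits lower, and Cry2 lies between 18.5 and 34.9 CPM throughout.

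Arntl (ENSMUSG00000055116.8, chr7:113207465-113314126, plus strand) encodes BMAL1, the partner that both CLOCK and NPAS2 need. Its level was 54.1, 49.2, 56.2, 45.7 and 52.3 CPM in KO_cold, against 14.5, 8.37, 11.2, 8.89 and 11.6 CPM in KO_RT. In WT_cold it was 52.3, 52.4, 54.4, 41.3 and 44.5 CPM, against 7.91, 14.2, 15.1, 12.7 and 27.4 CPM in WT_RT. Every cold library lay above every RT library, and WT_RT replicate 5 was the highest of the RT libraries. Arntl rose with a log2 fold change of 2.24 ± 0.235 (SE) in KO (adjusted p = 2.49e-07, edgeR) and 1.66 ± 0.228 in WT (adjusted p = 6.5e-06, edgeR).

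Clock (ENSMUSG00000029238.11, chr5:76209868-76304792, minus strand) encodes the DNA-binding partner of BMAL1. It was at 205, 185, 167, 185 and 177 CPM in KO_cold, against 136, 106, 125, 111 and 121 CPM in KO_RT. It was at 192, 200.2, 187, 172 and 182 CPM in WT_cold, against 110, 124, 126, 134 and 131 CPM in WT_RT. In each genotype the cold and RT libraries did not overlap, whereas KO and WT overlapped at both temperatures, and the libraries of a group lay close together, with a coefficient of variation of 5.71% to 9.70%. Its rise was small, 0.62 ± 0.0709 in log2 fold change in KO and 0.58 ± 0.0707 in WT (adjusted p = 1.82e-07 and 5e-07, edgeR).

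Npas2 (ENSMUSG00000026077.15, chr1:39193731-39363236, plus strand) encodes the paralog that can take the place of CLOCK. KO_cold libraries held 8.57, 6.86, 5.91, 5.72 and 9.60 CPM, against 2.25, 1.5, 1.4, 1.43 and 1.99 CPM in KO_RT. WT_cold libraries held 9.70, 4.65, 10.4, 4.53 and 15 CPM, against 1.42, 1.68, 3.20, 2.81 and 7.98 CPM in WT_RT. KO libraries separated fully by temperature, whereas WT_RT replicate 5 lay above WT_cold replicates 2 and 4. The log2 fold change was 2.09 ± 0.437 in KO (adjusted p = 0.000483, edgeR) and 1.38 ± 0.408 in WT (adjusted p = 0.00804, edgeR). Without WT_RT replicate 5 the WT change was 1.99 (adjusted p = 9.56e-05, edgeR). With the mean of the muscle markers as a term it was 1.19 (adjusted p = 0.0594), and without both intermediate WT libraries it was 1.06 (adjusted p = 0.0547), so the WT call was lost in those fits.

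Among the Period genes, Per1 and Per2 rose and Per3 fell. Period proteins carry PAS domains and hold the Cryptochromes in the repressor complex, and in mice the loss of Per3 leaves the core rhythm largely intact. Per1 (ENSMUSG00000020893.17, chr11:69095217-69109960, plus strand) was at 50.4, 71.2, 74.8, 58.7 and 50.0 CPM in KO_cold, against 9.77, 12.9, 31.7, 12.5 and 11.7 CPM in KO_RT. It was at 52.2, 64.5, 75.2, 59.7 and 63.9 CPM in WT_cold, against 16, 8.57, 11.7, 10.4 and 7.30 CPM in WT_RT. All cold libraries were above all RT libraries, and KO_RT replicate 3 was far above the rest of its group. The log2 fold change was 1.96 ± 0.281 in KO and 2.55 ± 0.286 in WT (adjusted p = 1.09e-05 and 7.99e-07, edgeR), and the 5.85-fold rise in WT was the largest of the 9 genes there.

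Per2 (ENSMUSG00000055866.9, chr1:91415982-91459324, minus strand), the Period gene whose loss most disturbs the rhythm in mice, was at 32.0, 40.4, 40.7, 35.5 and 31.7 CPM in KO_cold, against 9.74, 11.7, 13.1, 13.0 and 12.2 CPM in KO_RT. It was at 48.7, 39.4, 36.8, 45.4 and 31.7 CPM in WT_cold, against 17.0, 7.19, 8.02, 12.9 and 6.87 CPM in WT_RT. Again no cold library overlapped an RT library. The change was 1.59 ± 0.207 in KO and 1.96 ± 0.207 in WT (adjusted p = 2.63e-06 and 2.68e-07, edgeR).

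Per3 (ENSMUSG00000028957.12, chr4:151003652-151044665, minus strand) went the other way. It was at 2.98, 2.63, 2.83, 2.91 and 2.55 CPM in KO_cold, against 14.0, 24.8, 14.7, 20.4 and 16.9 CPM in KO_RT. It was at 3.09, 3.89, 2.73, 5.17 and 3.41 CPM in WT_cold, against 24.9, 15.2, 16.8, 17.2 and 14.6 CPM in WT_RT. The highest cold library, WT_cold replicate 4, lay well below the lowest RT library. The log2 fold change was -2.71 ± 0.190 in KO and -2.28 ± 0.182 in WT (adjusted p = 5.89e-10 and 3.25e-09, edgeR), falls of 6.53-fold and 4.86-fold. In KO this was the largest change of the 9 genes in either direction.

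Of the Cryptochromes, whose proteins bind CLOCK and BMAL1 to block them, Cry1 rose and Cry2 did not pass. Cry1 (ENSMUSG00000020038.10, chr10:85131700-85185064, minus strand) was at 41.2, 35.4, 43.9, 39.2 and 46.6 CPM in KO_cold, against 11.5, 11.4, 12.9, 11.9 and 15.5 CPM in KO_RT. It was at 47.7, 47.8, 53.3, 40.1 and 45.9 CPM in WT_cold, against 13.1, 12.1, 12.9, 20.7 and 27.5 CPM in WT_RT. The temperatures did not overlap, and WT_RT replicates 4 and 5 were the highest at RT. Cry1 rose by a log2 fold change of 1.71 ± 0.185 in KO and 1.45 ± 0.181 in WT (adjusted p = 2.83e-07 and 1.9e-06, edgeR).

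Cry2 (ENSMUSG00000068742.11, chr2:92403646-92434043, minus strand) was at 23.8, 34.9, 33.4, 31.9 and 25.0 CPM in KO_cold, against 21.9, 26.4, 22.7, 30.9 and 24.8 CPM in KO_RT. It was at 18.5, 21.7, 22.3, 22.8 and 19.0 CPM in WT_cold, against 24.9, 19.6, 24.0, 26.0 and 19.4 CPM in WT_RT. The temperatures overlapped in both genotypes. The cold change was 0.23 in KO (95% interval -0.01 to 0.48, adjusted p = 0.0919, edgeR) and -0.13 in WT (95% interval -0.38 to 0.12, adjusted p = 0.368, edgeR), so neither interval holds a 1.5-fold change. In KO the gene passed the test when KO_cold replicate 1 (0.34, adjusted p = 0.0174), KO_cold replicate 5 (0.32, adjusted p = 0.0274) or KO_RT replicate 4 (0.34, adjusted p = 0.0171) was left out.

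Ciart (ENSMUSG00000038550.10, chr3:95878503-95882251, minus strand), the BMAL1 repressor with the E-box cluster shown above, was at 4.95, 6.67, 9.52, 6.43 and 3.38 CPM in KO_cold, against 3.22, 2.62, 3.62, 4.16 and 2.35 CPM in KO_RT. It was at 5.04, 7.32, 6.97, 7.38 and 4.48 CPM in WT_cold, against 2.73, 1.52, 1.29, 2.53 and 0.606 CPM in WT_RT. WT libraries separated by temperature, whereas KO_cold replicate 5 fell within the KO_RT range. The log2 fold change was 0.95 ± 0.310 in KO (adjusted p = 0.0128, edgeR) and 1.84 ± 0.319 in WT (adjusted p = 6.88e-05, edgeR). With the muscle marker term the KO change was 1.10 and did not pass (adjusted p = 0.0649).

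**Figure D2:**
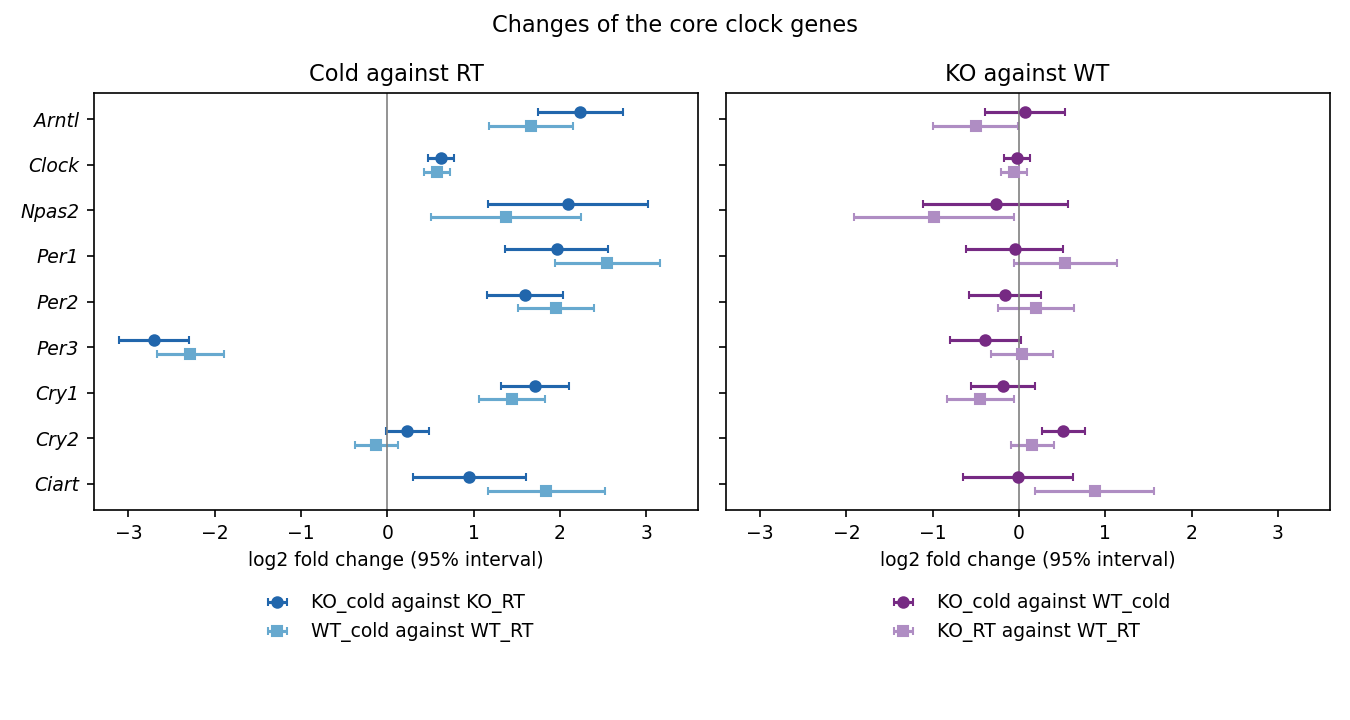
Log2 fold changes of the 9 genes with 95% intervals, for cold against RT (left, circles KO and squares WT) and for KO against WT (right, circles in the cold and squares at RT). Cold changes run from -2.71 (Per3 in KO) to 2.55 (Per1 in WT), whereas the genotype changes lie within 1 log2 unit of 0 and that of Cry2 in the cold, 0.51, is the one that passed.

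Between genotypes, 1 difference passed the test in the cold and none at RT. In the cold, Cry2 was the 1 gene of 9 that passed (7.7% of all genes tested did, 3.51% higher and 4.19% lower), and its KO_cold libraries, at 23.8 CPM or above, all lay above its WT_cold libraries, at 22.8 CPM or below. Such a lack of overlap was found for 7% of all genes. The log2 fold change of Cry2 was 0.51 ± 0.117, with a 95% interval of 0.27 to 0.76 (adjusted p = 0.00732, edgeR). The summed level of 5 fibroblast and progenitor markers was likewise apart, at 381 to 421 CPM in KO_cold and 298 to 339 in WT_cold, and that of 6 adipocyte markers was 8571 to 8819 CPM in KO_cold and 9295 to 13053 in WT_cold; their part in the difference of Cry2 was not tested. The median size of the 9 differences was 0.16 on the log2 scale, against 0.13 over all genes tested. The other 8 changes ran from -0.39 to 0.07. The bounds were tightest for Clock (-0.17 to 0.13) and widest for Npas2 (-1.11 to 0.57). Per3 and Cry1 were each lower in KO_cold than the WT_cold mean in 5 of 5 libraries without passing. Per3 changed by -0.39 (95% interval -0.81 to 0.02, adjusted p = 0.275, edgeR) and Cry1 by -0.19 (95% interval -0.56 to 0.19, adjusted p = 0.633, edgeR).

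At RT no core clock gene passed the test of KO against WT, while 2.7% of all genes did (1.38% higher and 1.32% lower). For none of the 9 did the KO_RT and WT_RT libraries lie apart, as those of 4.98% of all genes did. DESeq2 also called 0 of the 9, and 4 had an unadjusted p under 0.05 in edgeR. Those were Arntl (-0.50, 95% interval -0.99 to -0.01, adjusted p = 0.343), Npas2 (-0.99, -1.92 to -0.06, adjusted p = 0.32), Cry1 (-0.45, -0.84 to -0.06, adjusted p = 0.262) and Ciart (0.87, 0.19 to 1.56, adjusted p = 0.196). WT_RT replicate 5 was the highest library of its group for the first 3 of these and the lowest for Ciart. The median size of the 9 differences at RT was 0.45 on the log2 scale, against 0.11 over all genes tested, so the absence of calls does not show that the levels were alike. Without WT_RT replicate 5 the differences were -0.19 for Arntl, -0.39 for Npas2, -0.22 for Cry1 and 0.66 for Ciart.

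The response to cold was not shown to differ between genotypes for any member. Of the 9 interaction terms 0 passed in edgeR and 0 in DESeq2, against 0.742% of all genes in edgeR, and 1 had an unadjusted p under 0.05. That was Cry2, with an interaction of 0.36 (95% interval 0.01 to 0.71, adjusted p = 0.459, edgeR). The intervals were wide for Ciart (-0.89, from -1.82 to 0.05), Npas2 (0.72, from -0.53 to 1.97) and Arntl (0.57, from -0.10 to 1.25), and narrow for Clock (0.04, from -0.17 to 0.25). Simulated data with these libraries' depth and spread gave calls for 80% of genes with a true 2-fold interaction and 49% with a 1.5-fold one. Those genes were drawn from genes at large and not from the members. The SE of the interaction was 0.590 for Npas2, 0.441 for Ciart and 0.0998 for Clock, so these shares cannot be read as the power for each member.

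Levels were set side by side between genes as CPM per kilobase of annotated exon. In KO_cold the order of the group means was Clock (13.4), Cry1 (12.4), Per1 (10.8), Arntl (6.85), Per2 (6.16), Cry2 (4.72), Ciart (2.74), Npas2 (1.53) and Per3 (0.289). In KO_RT it was Clock (8.73), Cry2 (4.01), Cry1 (3.79), Per1 (2.79), Per2 (2.04), Per3 (1.89), Arntl (1.45), Ciart (1.41) and Npas2 (0.357). Of neighbours in these orders, library ranges were separate for Per1 over Arntl and Npas2 over Per3 in KO_cold, and for Clock over Cry2 and Ciart over Npas2 in KO_RT. All other neighbours overlapped.

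In WT_cold the order was Cry1 (14.1), Clock (13.6), Per1 (11.2), Per2 (6.90), Arntl (6.51), Cry2 (3.30), Ciart (2.76), Npas2 (1.85) and Per3 (0.381) CPM per kilobase. In WT_RT it was Clock (9.11), Cry1 (5.16), Cry2 (3.61), Arntl (2.05), Per1 (1.91), Per3 (1.85), Per2 (1.78), Ciart (0.767) and Npas2 (0.713). Neighbours with separate ranges were Per1 over Per2, Arntl over Cry2 and Npas2 over Per3 in WT_cold, and none in WT_RT. Per3 was thus last of the 9 in both cold groups and sixth of 9 in both RT groups, with library ranges there that overlapped those of its neighbours.

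Ratios taken within each library show the same shift. Arntl stood to Per3, per kilobase, at 23.8 ± 2.37 in KO_cold and 0.831 ± 0.352 in KO_RT, and at 18.2 ± 5.73 in WT_cold and 1.22 ± 0.725 in WT_RT (SD, n = 5 each). Per1 stood to Per3 at 37.6 ± 7.69 in KO_cold and 1.6 ± 1.17 in KO_RT, and at 31.2 ± 9.92 in WT_cold and 1.02 ± 0.128 in WT_RT. Cry1 over Cry2 was 2.71 ± 0.674 in KO_cold and 0.960 ± 0.186 in KO_RT, and 4.29 ± 0.599 in WT_cold and 1.47 ± 0.702 in WT_RT. Npas2 stayed far below its paralog Clock, at 0.114 ± 0.0257 of it in KO_cold, 0.0408 ± 0.00665 in KO_RT, 0.137 ± 0.0694 in WT_cold and 0.0766 ± 0.0566 in WT_RT.

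Within a group, libraries also differed in the levels of these genes. WT_RT replicate 5 had the highest Arntl, Npas2 and Cry1 and the lowest Per1, Per2, Per3 and Ciart of its group, and WT_RT replicate 1 had the lowest Arntl, Clock and Npas2 and the highest Per1, Per2, Per3 and Ciart. WT_RT replicate 1 also had the highest muscle marker mean of the 20 libraries, at 5.72 in log2 CPM. The part of muscle in the pairs below was not tested. After the 4 group means were taken off log2 CPM, Pearson's r was computed for the 36 pairs of genes over the 20 libraries, with permutation tests within groups (100000 resamples, 2-sided). With adjustment over the 36 pairs, 6 passed by Pearson's r, 3 of them negative, and 2 of these also passed by Spearman's rho. With the means of the 2 temperatures taken off in place of the 4 group means, 9 pairs passed by Pearson's r. Of the 6 pairs above, Cry2 with Ciart (r = 0.48, adjusted permutation p = 0.0551) and Clock with Per3 (r = -0.525, adjusted permutation p = 0.0632) did not pass in that form. The values that follow are with the 4 group means taken off. Arntl and Per3 moved in opposite directions (r = -0.72, permutation p = 0.00058, adjusted 0.0209, rho = -0.68, permutation p = 0.00618, adjusted 0.0525), as did Npas2 and Ciart (r = -0.75, permutation p = 0.00126, adjusted 0.0227, rho = -0.72, permutation p = 0.00247, adjusted 0.0445). Cry2 and Ciart moved together (r = 0.68, permutation p = 0.00303, adjusted 0.0364, rho = 0.73, permutation p = 0.00116, adjusted 0.0418).

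The other pairs that passed were Arntl with Clock (r = 0.62), Per2 with Ciart (r = 0.72) and Clock with Per3 (r = -0.63), each with an adjusted permutation p of 0.0433. Their rho values were 0.54, 0.68 and -0.46, with permutation p of 0.0317, 0.00735 and 0.062 (adjusted 0.103, 0.0525 and 0.123). With the 2 libraries farthest from the median of the first gene left out, r was -0.74 for Arntl with Per3, -0.58 for Npas2 with Ciart, 0.65 for Cry2 with Ciart, 0.61 for Arntl with Clock, 0.55 for Per2 with Ciart and -0.42 for Clock with Per3. None of the 36 pairs then passed the adjusted test, with 18 libraries left, while r changed little for Arntl with Per3, Arntl with Clock and Cry2 with Ciart. WT_RT replicates 1 and 5 were the 2 left out for Arntl and for Per2.

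**Figure D3:**
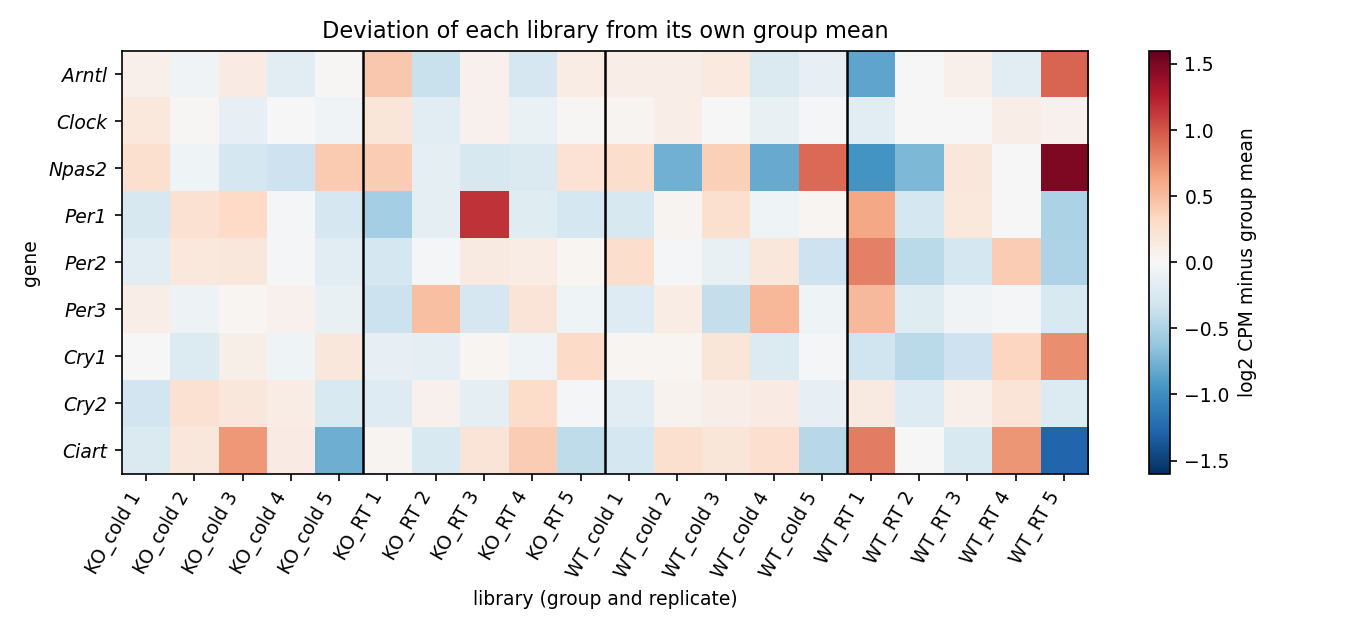
Difference of each library from its own group's mean in log2 CPM, for the 9 genes (rows) and 20 libraries (columns, split by group). WT_RT replicates 1 and 5 show opposite colours for Arntl, Npas2, Per1, Per2, Per3 and Ciart, and KO_RT replicate 3 stands out for Per1.

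For 8 of the members, the gene whose log2 CPM was most like theirs is given here. After the group means were taken off, it was found among 8918 or 8919 genes with a mean of at least 5 CPM, over 20 libraries, as a description. Per3 was most like Tef (r = 0.81), which encodes a PAR bZIP factor of the kind that binds D-boxes. The others were Cpeb4 for Clock (0.81), Dtx4 for Npas2 (0.81), Prmt6 for Per1 (0.80), Pgls for Per2 (0.77), Igfbp3 for Cry1 (0.82), Dbnl for Cry2 (0.84) and Phyh for Ciart (0.83).

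The REV-ERB and ROR receptors act on the ROR elements of Arntl, REV-ERBs as repressors and RORs as activators. Of the 4 genes Nr1d1, Nr1d2, Rora and Rorb, 0 rose and 2 fell with cold in KO, and likewise in WT, where 31.7% (KO) and 30.2% (WT) of all genes tested fell. Nr1d1, which encodes REV-ERB alpha, was at 35.1 ± 10.6 CPM in KO_cold and 57.1 ± 12.5 in KO_RT, and at 35.7 ± 10.9 in WT_cold and 60.4 ± 18.0 in WT_RT (SD, n = 5 each). Its log2 fold change was -0.70 in KO and -0.76 in WT (adjusted p = 0.0332 and 0.0226, edgeR). Rora, which encodes a ROR activator, changed by -0.39 in KO and -0.28 in WT (adjusted p = 0.0023 and 0.02, edgeR). Nr1d2, which encodes REV-ERB beta, did not pass in either genotype (0.02 in KO and 0.14 in WT).

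Several of these calls were fragile. That of Nr1d1 in KO was lost without KO_cold replicates 3 or 5 or KO_RT replicates 1, 2 or 3, each left out alone (-0.66 to -0.52, adjusted p = 0.064 to 0.0991). In WT it was lost without WT_cold replicates 1, 3 or 5 or WT_RT replicate 3 (-0.70 to -0.63, adjusted p = 0.0563 to 0.0707). That of Rora in WT was lost without WT_cold replicates 1, 3 or 4 or WT_RT replicates 2 or 5 (-0.25 to -0.19, adjusted p = 0.0527 to 0.111). With the muscle marker term, Nr1d1 (-0.78 in KO, adjusted p = 0.129; -0.81 in WT, adjusted p = 0.0537) and Rora (-0.30 in KO, adjusted p = 0.0998; -0.22 in WT, adjusted p = 0.144) did not pass. The Nr1d1 changes with that term were slightly larger in size than the -0.70 in KO and -0.76 in WT without it. Nr1d1 also failed with no filter on low counts (adjusted p = 0.0709 in KO and 0.0582 in WT) and, in WT, without both intermediate libraries (-0.62, adjusted p = 0.102).

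The PAR bZIP output genes Dbp, Tef and Hlf, and Nfil3 listed with them, are driven by the core loop. Their proteins act on D-boxes, whose letters were found in the Per3 window. Binding there, and the part of these factors in the fall of Per3, was not tested. Of the 4, 1 rose and 3 fell with cold in KO (27.5% and 31.7% of all genes tested), and 1 rose and 2 fell in WT (26.2% and 30.2% of all genes). The D-box activators Dbp and Hlf fell, Dbp with a log2 fold change of -1.65 ± 0.321 in KO and -1.42 ± 0.316 in WT (adjusted p = 0.000256 and 0.000904, edgeR) and Hlf with -1.55 ± 0.143 in KO and -1.23 ± 0.140 in WT (adjusted p = 2.2e-08 and 4.13e-07, edgeR). Nfil3, which encodes the D-box repressor E4BP4, rose to 61.5 ± 9.51 CPM in KO_cold, against 12.6 ± 1.88 in KO_RT, and to 40.5 ± 10.7 CPM in WT_cold, against 12.4 ± 4.90 in WT_RT. Its log2 fold change was 2.29 in KO and 1.71 in WT (adjusted p = 2.02e-07 and 5.92e-06, edgeR).

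Bhlhe40 and Bhlhe41 encode DEC proteins that compete for E-boxes, and Arntl2 is the paralog of Arntl. Of these 3 genes, 0 rose and 2 fell in each genotype, where 31.7% (KO) and 30.2% (WT) of all genes fell. Arntl2 changed opposite to Arntl, by -1.47 ± 0.154 in KO and -1.08 ± 0.145 in WT (adjusted p = 5.29e-08 and 1.71e-06, edgeR), and was at 1.53 ± 0.208 CPM in KO_cold, 4.23 ± 0.809 in KO_RT, 2.44 ± 0.507 in WT_cold and 5.15 ± 0.375 in WT_RT. In the cold it was also lower in KO than in WT, by a log2 fold change of -0.67 (adjusted p = 0.00801, edgeR). Bhlhe41 passed in KO (-0.77, adjusted p = 0.0193, edgeR), but not without KO_cold replicate 1 (-0.69, adjusted p = 0.0545), without KO_RT replicate 4 (-0.54, adjusted p = 0.0856) or with the muscle term (-0.78, adjusted p = 0.112). Bhlhe40 passed in WT (-1.39, adjusted p = 0.0242, edgeR). That call was lost without WT_cold replicates 2, 3 or 5 or WT_RT replicates 1 or 2 (-1.30 to -0.93, adjusted p = 0.0573 to 0.103), and with the muscle term the change was -0.12 (adjusted p = 0.873). It was also lost with no filter (adjusted p = 0.0521) and in a fit of just the WT groups (adjusted p = 0.0735).

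**Figure D4:**
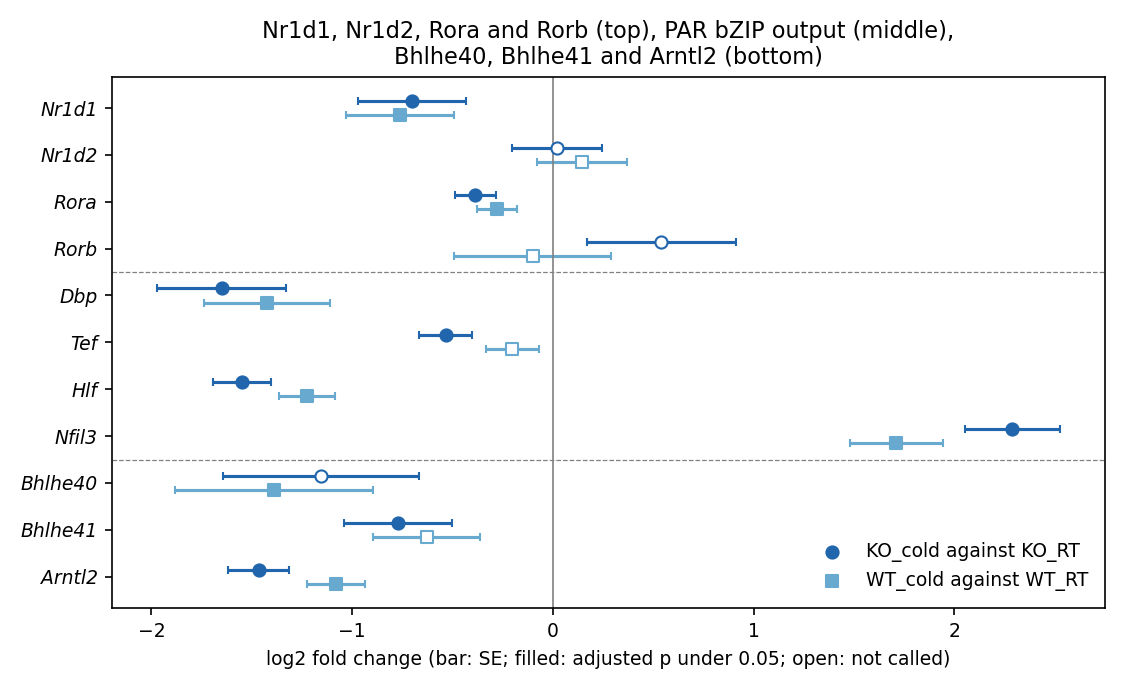
Log2 fold change with cold (point, with SE) of 11 genes around the core loop, in KO (circles) and WT (squares), where filled symbols passed the test. Nfil3 lies at 2.29 in KO and 1.71 in WT, and no other gene passed on the higher side.

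Of 23 genes for turnover of clock proteins and accessory factors, 12 rose and 7 fell with cold in KO, where 27.5% of all genes tested rose and 31.7% fell, and 10 rose and 8 fell in WT, where 26.2% rose and 30.2% fell. Usp2, a deubiquitinase that acts on clock proteins, stood at 184 ± 37.4 CPM in KO_cold, 28.7 ± 5.48 in KO_RT, 79.6 ± 14.1 in WT_cold and 27.7 ± 4.5 in WT_RT. Its cold change was 2.68 ± 0.172 in KO and 1.52 ± 0.166 in WT (adjusted p = 4.68e-10 and 3.27e-07, edgeR), and the difference between genotypes was 1.16 ± 0.231 (interaction, adjusted p = 0.0208, edgeR). Usp2 was the 1 gene of the 23 whose interaction passed, and the call was lost with no filter on low counts (1.14, adjusted p = 0.0632) and without both intermediate WT libraries (1.06, adjusted p = 0.0533). Noct, which encodes the rhythmic enzyme nocturnin, rose by 1.6 ± 0.168 in KO and 1.55 ± 0.167 in WT (adjusted p = 1.57e-07 and 2.52e-07, edgeR). Fbxl21, which encodes a ligase subunit that binds Cryptochromes, fell by 1.81 in KO and 1.2 in WT on the log2 scale, at levels below 1 CPM (adjusted p = 5.12e-05 and 0.00233, edgeR).

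Of the 2 genes for cold-inducible RNA-binding proteins, known in mice to shape clock transcripts, 1 rose and 1 fell in each genotype, where 27.5% (KO) and 26.2% (WT) of all genes rose and 31.7% (KO) and 30.2% (WT) fell. Cirbp fell, with a log2 fold change of -1.39 in KO and -1.34 in WT (adjusted p = 1.12e-07 and 1.72e-07, edgeR). Rbm3 rose, by 0.39 in KO and 0.43 in WT (adjusted p = 0.00237 and 0.00117, edgeR), and its KO call was lost with the muscle term (0.36, adjusted p = 0.0631).

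The signals that can reach Per1 and Per2 from outside the loop were followed through genes of their pathways and other genes that respond to them. Of 8 genes of CREB signalling and its targets, 7 rose with cold in KO (27.5% of all genes tested did) and 6 in WT (26.2% of all genes), and none fell. Creb1 and the coactivator genes Crtc1, Crtc2 and Crtc3 are among the 8, with changes from -0.18 (Crtc1 in WT) to 0.27 (Creb1 in KO). Nr4a1, an immediate early nuclear receptor gene, was at 211 ± 71.9 CPM in KO_cold, 12.5 ± 7.45 in KO_RT, 93.5 ± 47.1 in WT_cold and 12.4 ± 5.82 in WT_RT, with a cold change of 4.07 in KO and 2.92 in WT (adjusted p = 1.1e-05 and 0.000225, edgeR). Sik1, a kinase gene induced by cAMP whose protein restrains CREB coactivators, changed by 2.36 and 1.65 (adjusted p = 4.03e-06 and 0.000159, edgeR). Of 6 genes listed as glucocorticoid-responsive, among them the receptor gene Nr3c1, 6 rose in KO and 5 in WT, beside the same 27.5% and 26.2% of all genes. Zbtb16 rose by 3.17 in KO and 2.67 in WT, and Fkbp5, which encodes a chaperone of the glucocorticoid receptor, by 2.22 and 2.0 (adjusted p of 0.000101 or less in each, edgeR).

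Of 5 heat shock genes, which in mice can feed into Per2, 4 rose in each genotype, against 27.5% of all genes in KO and 26.2% in WT. Hsph1 rose by 3.11 in KO and 2.75 in WT on the log2 scale. Hspa1a (3.91 and 3.09) and Hspa1b (4.5 and 3.45) also passed, but they are near-identical copies, and how reads were shared between them is uncertain. The median log2 fold change was 0.93 in KO and 0.73 in WT for the CREB genes, 1.53 in both for the glucocorticoid-responsive genes and 3.11 and 2.75 for the heat shock genes, against -0.05 in both over all genes tested. The part of these signals in the rise of Per1 and Per2 was not tested.

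Between genotypes, few of these further clock genes passed, as few of all genes did (7.7% in the cold and 2.7% at RT). In the cold, Rorb was at 5.39 ± 2.11 CPM in KO_cold and 1.86 ± 1.02 in WT_cold and was higher in KO by 1.52 on the log2 scale (adjusted p = 0.0184, edgeR), while Rora was lower by a log2 fold change of -0.44 (adjusted p = 0.00707, edgeR). The Rorb call was lost without KO_cold replicate 3 (1.25, adjusted p = 0.0622) and without WT_cold replicate 4 (1.39, adjusted p = 0.0529). Usp2 (1.21, adjusted p = 7.47e-05, edgeR) and Fbxw11 (0.31, adjusted p = 0.00461, edgeR) were higher in KO_cold than in WT_cold. Fbxw11 encodes a ligase subunit that targets Period proteins. None of the genes Dbp, Tef, Hlf and Nfil3 passed. Nampt (-0.37, adjusted p = 0.0314), the NAD-producing enzyme gene under clock control, and Sik1 (1.0, adjusted p = 0.048) passed as well. The Nampt call was lost in 7 of the fits that left out 1 library (adjusted p = 0.0583 to 0.103), and the Sik1 call in all 10 that left out a KO_cold or WT_cold library (adjusted p = 0.0555 to 0.114). At RT, Ncor1 (-0.27, adjusted p = 0.0303), a REV-ERB corepressor gene, and Crtc1 (-0.33, adjusted p = 0.0487), a CREB coactivator gene, were the genes of these lists that passed, and leaving out 1 library ended the call of Ncor1 in 6 fits (adjusted p = 0.0534 to 0.0916) and that of Crtc1 in 8 (adjusted p = 0.0645 to 0.15). Other alternatives ended the call of Rorb in 2 fits (adjusted p = 0.0575 to 0.0662), of Nampt in 2 (0.0542 to 0.0909), of Sik1 in 6 (0.0531 to 0.121), of Ncor1 in 3 (0.0606 to 0.0735) and of Crtc1 in 5 (0.0632 to 0.184).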

How the data were processed

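The deposited values are whole-number counts of reads per gene, 1 table per library with columns for both strands, the forward and the reverse strand. Per the submitters' processing notes, Trim Galore 0.6.0 and STAR 2.7.8a were used with GRCm38.p6; the annotation release is not given in the sources used here. The kit is stranded, and the reverse-strand counts were used (94.5% to 95.7% of the stranded gene counts). Of the reads counted, the 4 entries that name no gene held 3.86% to 5.66% (unmapped), 18.3% to 21.4% (several places), 3.14% to 4.55% (no gene) and 1.02% to 1.16% (more than 1 gene), and they were left out. Symbols and coordinates came from GENCODE M21.

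Genes were filtered by filterByExpr (count minimum 10, total minimum 15), scaled by TMM and tested with edgeR 4.0.16 in R 4.3.3 by 1 robust quasi-likelihood fit of the 4 groups (15233 genes, 16 residual degrees of freedom, threshold 0.05 after Benjamini-Hochberg adjustment). SE is the log2 fold change over the root of F, and 95% intervals use 16 degrees of freedom. Log2 CPM used a prior count of 2. The steps were tested on simulated data. No pair of libraries within a group agreed within counting error.

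The members, the lists of further genes and the naming rule were chosen with earlier results of these data known. The rule names all 9 members, the gene most like each, Cebpb, and, per list and comparison, up to 3 genes of largest change among those that passed. Nr1d2 was added after its values were seen, and a few items that the rule names are not reported here. The alternatives were relative log expression scaling, no filter, DESeq2 1.42.0, a fit of just the compared groups, a replicate block, both strands counted together, single libraries left out, both intermediate WT libraries left out, and the muscle marker mean as a term. That mean was -2.55 to -2.30 in log2 CPM in KO_cold and 0.513 to 4.49 in KO_RT. The term therefore overlaps with temperature, and a call lost with it does not show a part of muscle.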

Additional observations from a re-analysis of the deposited data

Results flagged for a closer look

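In 36 sets of 5 libraries (9 genes in 4 groups), 3 had a library whose gap to its nearest neighbour was over 0.71 of the whole range of the group, the limit of Dixon's test at 95%, and chance alone marks about 1 set in 20. Npas2 in WT_RT replicate 5 was at 7.98 CPM, with the next library at 3.20 CPM. Per1 in KO_RT replicate 3 was at 31.7 CPM, with the next at 12.9 CPM. Per3 in WT_RT replicate 1 was at 24.9 CPM, with the next at 17.2 CPM. Without KO_RT replicate 3 the cold change of Per1 in KO was 2.41 on the log2 scale, and the difference of Per1 between KO_RT and WT_RT was 0.12.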

How the results depend on the processing

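For the core clock genes, 865 of 891 alternative values kept the direction and the side of the threshold, 7 changed side and 19 changed sign. No value that changed sign passed the test before or after. With 1 library left out, the ranges that crossed 0 were, for KO against WT in the cold, -0.0633 to 0.0056 (Clock), -0.436 to 0.0063 (Npas2), -0.137 to 0.0233 (Per1) and -0.23 to 0.14 (Ciart), for KO against WT at RT -0.11 to 0.19 (Per3), and for the interaction -0.001 to 0.0904 (Clock). In the cold, KO against WT also changed sign for Npas2 without both intermediate WT libraries (0.0067) and, with the muscle term, for Per1 (0.0338) and Ciart (0.0146). The gains and losses of calls for Cry2, Npas2 and Ciart with libraries left out or with the muscle term stand beside their values in the report. With the replicate number as a block, Cry2 passed for cold in KO (0.23, adjusted p = 0.0485, edgeR), which made 9 genes called in place of 8, and no other core clock call changed. Same-numbered libraries of different groups correlated at -0.18 to 0.27 over 20 pairs, and 6 of 20 libraries correlated best with their own number. Whether the numbers pair samples is not stated in the labels, and such correlations cannot decide it. Of the within-group pairs of genes, 6 passed with all libraries and 0 without the 2 farthest, when 18 libraries entered. For the further named genes, 895 of 981 values stayed and 86 lost the call, with none reversed. Over all genes, the calls for the knockout at RT numbered 411, against 629 with DESeq2, 267 without WT_RT replicate 5 and 269 without KO_RT replicate 4. Interaction calls numbered 113, against 269 with DESeq2 and 74 without both intermediate WT libraries. Low counts limit Npas2, Per3 and Ciart most: the lowest library held 41 reads of Npas2, 67 of Per3 and 24 of Ciart.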

Other observations

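The kit keeps strand, so reads on the strand opposite to each clock gene were counted as well. In all genes but Ciart they were a small share of the gene's stranded reads, with group means of at most 1.17% (Cry2 in KO_RT). By number, Ciart held 49 to 90 such reads per group and Clock 46 to 86, on 2261 and 13727 annotated exon bases. Every other gene held at most 49 per group (Cry2 in KO_RT). The 90 of Ciart in WT_RT was the highest number of any gene and group. At Ciart, opposite-strand reads made up 5.65% of the gene's stranded reads in KO_cold, 10.5% in KO_RT, 5.10% in WT_cold and 23.2% in WT_RT on average. An antisense gene, C920021L13Rik, is annotated across Ciart with 0 shared exon bases. Of 36 exact 2-sided permutation tests of such shares between groups, over the 9 genes and 4 comparisons, 0 passed after Benjamini-Hochberg adjustment, and 6 had an unadjusted p under 0.05. With 5 libraries against 5 the smallest p is 0.00794, so a single gene whose groups are fully apart could not pass over 36 tests (adjusted p = 0.286), and the lack of adjusted calls does not show that the shares were alike. Ciart with cold in WT was at that smallest p, with shares of 1.25% to 12.1% in WT_cold and 15.2% to 41.5% in WT_RT that did not overlap. The share also moves with the sense reads of Ciart, whose mean was 6.24 CPM in WT_cold and 1.73 in WT_RT. Its opposite-strand reads averaged 0.300 CPM in WT_cold and 0.455 in WT_RT, on 3 to 28 reads per library. On the annotated opposite strand, Gm45355 shares 33 exon bases with Arntl and D930015M05Rik shares 295 with Cry2.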
